A study of Saccharomyces cerevisiae with 12 samples.

Results

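The 43 genes described here are part of the general stress and storage carbohydrate response of budding yeast (Saccharomyces cerevisiae). They were taken from a list of open reading frames by what their products do, a list drawn up when earlier results of these data were known, and each had 1 gene-specific probe set among the 5581 genes tested. The list holds the regulators MSN2 and MSN4, 20 further stress-induced genes and 21 genes that make, break down or regulate trehalose and glycogen. Transcript levels came from 12 arrays in 4 groups of 3 replicates. In experiment A, cells lacking EUC1 (euc1∆, strain MJK448) were compared with wild type (WT, strain Y0003). In experiment B, cells whose Euc1 carries the K231R exchange (euc1-K231R, strain MJK612) were compared with WT arrays of the same strain Y0003. All cultures grew shaking at 30°C in YP medium with 2% glucose, were collected while dividing at an OD600 of 0.7 to 1, and met no added stress. Euc1 is a transcription factor-like protein that marks the chromosomal sites called ub-hotspots, and lysine K231 is its main SUMO acceptor. The K231R allele was introduced with a URA3 marker, so effects of the marker and of the exchanged residue cannot be told apart.

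Msn2 and Msn4 are paralogous zinc finger transcription factors that move into the nucleus when cells meet heat, oxidants, osmotic stress or glucose shortage, and bind the stress response element in front of many of the genes below. Protein kinase A, active when glucose is plentiful, keeps them out of the nucleus, so much of this program is held low in log phase cells. Trehalose and glycogen are the storage carbohydrates of yeast. Both are built from UDP-glucose, trehalose also protects proteins and membranes, and the genes for making and for degrading them are induced together by stress.

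Levels are given as log2 values, so a difference of 1 is a doubling of signal, and differences are the mutant minus the WT of the same experiment. A gene was called where its limma test had an adjusted p under 0.05 over all 5581 genes. The experiments had been normalised apart, so levels are set side by side only within one of them. EUC1 (YMR111C) averaged 3.75 ± 0.12 in euc1∆ against 9.10 ± 0.07 in WT, and 8.15 ± 0.04 in euc1-K231R against 9.17 ± 0.08 in WT (SD, n = 3 each). It was thus called lower in euc1-K231R too (-1.02, adjusted p = 1.8e-04 by limma). This value is for the transcript only. The study that reported these data found Euc1 protein mildly raised in cells with this exchange. Effects of a changed EUC1 level cannot be told apart from those of the exchanged residue or the marker. Replicate arrays correlated at 0.996 to 0.999 over all genes. All 43 genes lay on average above 5.25, the 95th percentile of signal from the fission yeast (S. pombe) probes that the array also carries and that these cells should not light up, GAC1 being the nearest to it. The RNA is from whole cultures, so fewer cells carrying a transcript and less of it per cell cannot be told apart. The labels number the replicates without saying whether they were separate cultures, so the p-values measure only the spread between these arrays.

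In euc1∆ cells none of the 43 genes was called (0 of 43 by limma), against 0.125% of all genes, called in either direction. At an unadjusted p under 0.05 there were 3 genes higher (HSP26, GND2 and UGP1) and 1 lower (GDB1), where 12.4% of all genes reached that level. In euc1-K231R cells 4 genes fell and 0 rose, against 0.717% of all genes lower and 0.179% higher. The genes that fell were HSP12 (YFL014W), DDR2 (YOL052C-A), SIP18 (YMR175W) and GAC1 (YOR178C). At an unadjusted p under 0.05 there were 10 genes lower and 6 higher in euc1-K231R, and the shares among all genes were 10.4% and 8.94%. The median difference of the 43 genes was 0.06 in euc1∆ and -0.04 in euc1-K231R, with 0.00 for all genes in each comparison. The count of 4 in euc1-K231R was 0 without WT replicate 1 or mutant replicate 2, and 2 (HSP12 and SIP18) without WT replicate 2 or mutant replicate 3. It was also 0 when all 10928 probe sets of the array, S. pombe included, were tested.

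**Figure D1:**
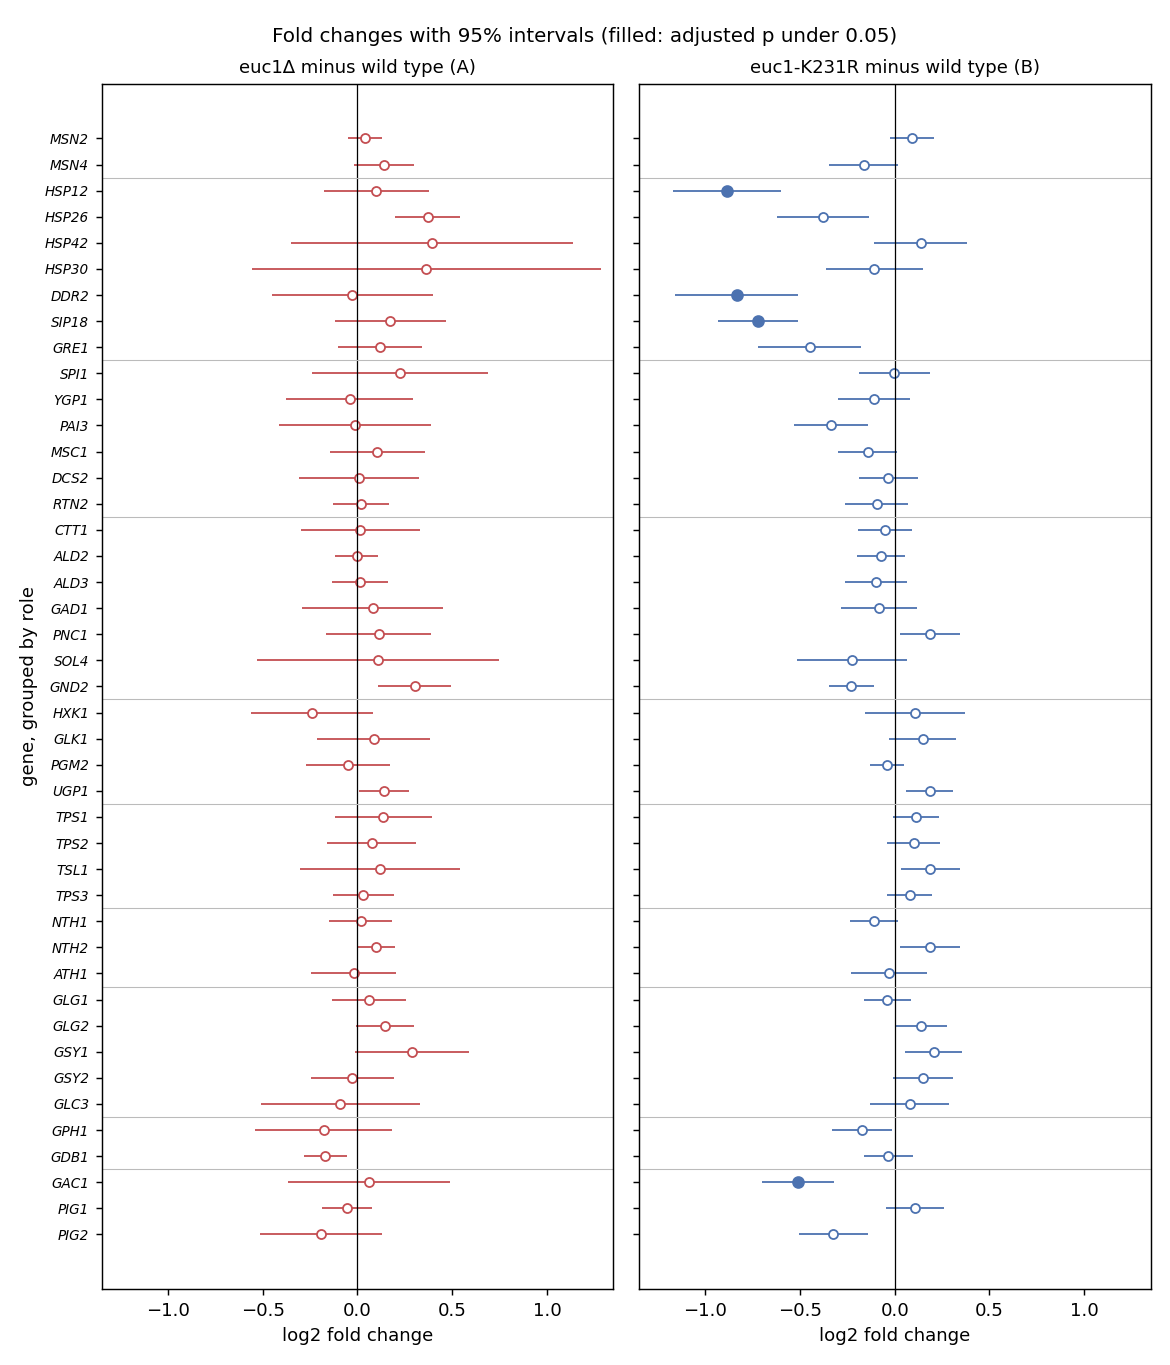
Log2 fold changes of the 43 genes, grouped by role, in euc1∆ minus WT (experiment A, left) and euc1-K231R minus WT (experiment B, right), with 95% intervals from limma and filled points for genes with an adjusted p under 0.05. Filled points stand only at HSP12 (-0.88), DDR2 (-0.84), SIP18 (-0.72) and GAC1 (-0.51) in euc1-K231R, and the widest intervals are those of HSP30 and HSP42 in euc1∆.

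The transcripts of the regulators themselves were not called in either mutant. MSN2 (YMR037C) stood at 10.15, 10.15 and 10.09 in euc1∆ against 10.05, 10.13 and 10.09 in WT, and at 10.78, 10.74 and 10.65 in euc1-K231R against 10.60, 10.63 and 10.67 in WT. MSN4 (YKL062W), the paralog whose own transcript is stress-inducible, had values of 8.55, 8.39 and 8.51 in euc1∆ against 8.24, 8.44 and 8.36 in WT. In experiment B it had 8.87, 8.90 and 8.87 in euc1-K231R against 8.87, 9.19 and 9.07 in WT. Mutant and WT arrays overlapped for both genes in both experiments. The differences for MSN2 were 0.04 (95% interval -0.05 to 0.13) in euc1∆ and 0.09 (-0.03 to 0.21) in euc1-K231R, and those for MSN4 were 0.14 (-0.02 to 0.30) and -0.16 (-0.35 to 0.02). Msn2 and Msn4 are controlled mainly by where the proteins are, which arrays do not show.

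The 7 genes for small heat shock proteins and hydrophilins held 3 of the 4 falls. Their median difference was -0.45 in euc1-K231R, with 6 of 7 below 0, and 0.17 in euc1∆, with 6 of 7 above 0 and none called. HSP12 encodes a small membrane-associated protein that is among the most stress-responsive of yeast transcripts. Its levels were 11.71, 11.61 and 11.47 in euc1-K231R against 12.37, 12.77 and 12.31 in WT. The highest mutant array thus lay well below the lowest WT array. The difference was -0.88 ± 0.12 (SE) with an adjusted p of 0.027. In euc1∆ HSP12 had 11.21, 11.15 and 10.83 against 11.04, 10.78 and 11.06 in WT, and the arrays overlapped (0.10, 95% interval -0.18 to 0.38). This small difference ran between 0.01, without WT replicate 2, and 0.22, without euc1∆ replicate 3, when 1 array was left out. The study that reported these data describes HSP12 as downregulated in euc1∆ cells, whose transcriptome it also measured by RNA sequencing. That fall was not seen on these arrays.

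DDR2, a multi-stress gene first found through its response to DNA damage, was lower in euc1-K231R as well. It had 9.16, 8.84 and 8.77 in euc1-K231R against 9.56, 10.02 and 9.69 in WT, with no overlap and a difference of -0.84 ± 0.14 (SE, adjusted p = 0.049 by limma). In euc1∆ the values were 8.87, 8.45 and 8.11 against 8.60, 8.49 and 8.42 in WT. Here the mutant arrays lay on both sides of the WT arrays, and the difference was -0.03 (95% interval -0.45 to 0.40). Of the 6 fits that left out 1 array, the DDR2 call in euc1-K231R held only without mutant replicate 1, and the adjusted p ran between 0.036 and 0.219.

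SIP18 and GRE1 encode related hydrophilins, very hydrophilic proteins linked to survival of drying. SIP18 had 6.06, 6.13 and 6.08 in euc1-K231R against 6.73, 7.03 and 6.68 in WT. The mutant arrays were tightly grouped and all below WT (-0.72 ± 0.09 SE, adjusted p = 0.019 by limma). GRE1 (YPL223C) had 7.13, 7.09 and 6.72 in euc1-K231R against 7.39, 7.57 and 7.32 in WT. Its arrays did not overlap either, but with a difference of -0.45 and an adjusted p of 0.128 it was not called. After quantile normalisation these euc1-K231R differences were smaller, at -0.52 for SIP18 (adjusted p = 0.016 by limma) and -0.30 for GRE1 (adjusted p = 0.142). Those of GAC1 (-0.31) and PAI3 (-0.15), also of low signal, shrank too. HSP12 (-0.89), DDR2 (-0.84) and HSP26 (-0.38), of higher signal, hardly moved. The part of signal level in the size of the low-signal falls was not tested. In euc1∆ SIP18 had 7.04, 6.58 and 6.68 against 6.69, 6.47 and 6.61 in WT, and GRE1 had 6.92, 6.78 and 6.55 against 6.58, 6.60 and 6.71 in WT. Both overlapped, with differences of 0.17 (95% interval -0.12 to 0.47) for SIP18 and 0.12 (-0.10 to 0.34) for GRE1. That of SIP18 ran between 0.04, without euc1∆ replicate 1, and 0.27, without euc1∆ replicate 2, when 1 array was left out. The HSP12 and SIP18 calls in euc1-K231R were each lost without WT replicate 1 or mutant replicate 2, with adjusted p up to 0.168 for HSP12 and 0.110 for SIP18.

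**Figure D2:**
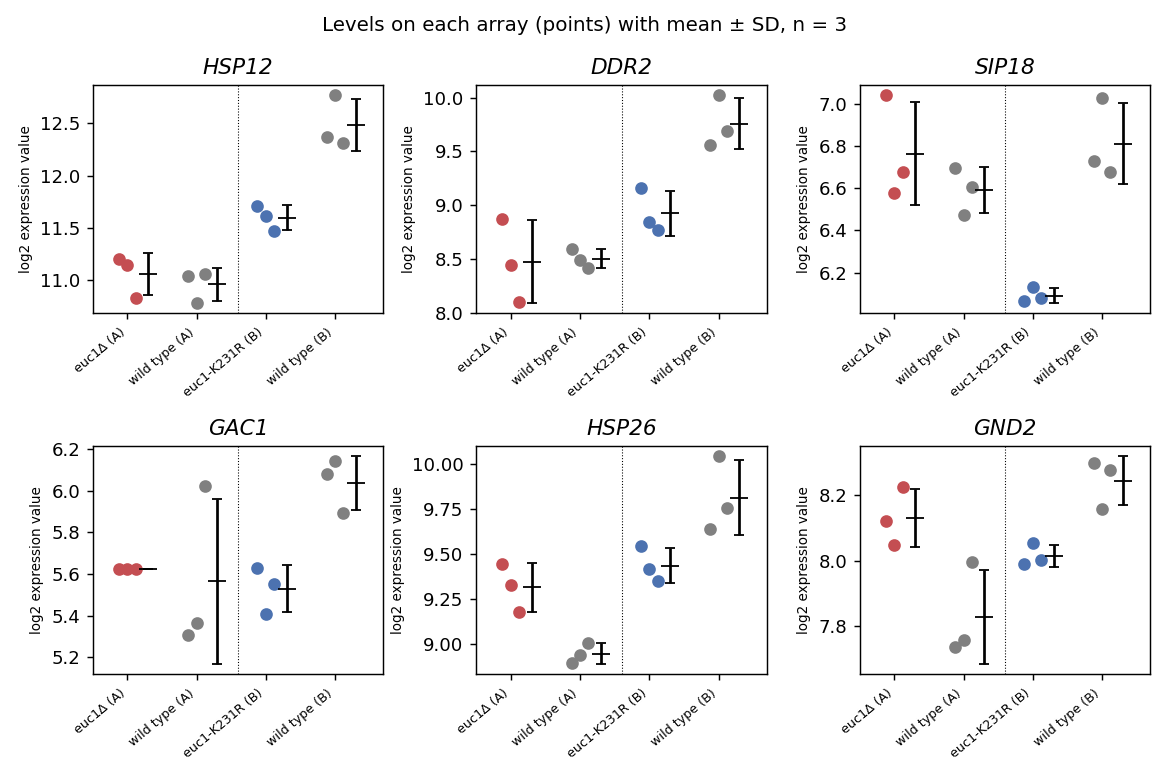
Log2 expression values on each array (points) for the 6 genes called in a comparison or in the difference between the mutants' effects, with the mean ± SD of the 3 arrays beside them. Groups run euc1∆, WT (A), euc1-K231R and WT (B), and a dotted line divides the experiments, whose levels are not comparable. HSP12, DDR2, SIP18 and GAC1 lie below WT on every euc1-K231R array, and HSP26 and GND2 lie above WT in euc1∆ and below WT in euc1-K231R.

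HSP26 (YBR072W), the best-known small heat shock chaperone of yeast, had 9.45, 9.33 and 9.18 in euc1∆ against 8.89, 8.94 and 9.01 in WT. All mutant arrays were above all WT arrays, and the difference was 0.37 (95% interval 0.20 to 0.54), the smallest p of the 43 genes in this comparison, at an adjusted p of 0.203. In euc1-K231R HSP26 had 9.55, 9.42 and 9.35 against 9.64, 10.05 and 9.75 in WT. There the mutant arrays were all below WT (-0.38, 95% interval -0.62 to -0.13, adjusted p = 0.146 by limma). HSP42 (YDR171W), the second cytosolic small heat shock chaperone, had 11.90, 11.42 and 10.61 in euc1∆ against 10.63, 11.09 and 11.03 in WT. In euc1-K231R its values were 10.70, 10.65 and 10.70 against 10.29, 10.63 and 10.73 in WT. HSP30 (YCR021C), a plasma membrane heat shock protein, had 12.32, 11.59 and 10.78 in euc1∆ against 10.79, 11.57 and 11.24 in WT, and 8.52, 8.31 and 8.16 in euc1-K231R against 8.43, 8.61 and 8.28 in WT. For both genes euc1∆ replicates 1 and 2 were above every WT array and replicate 3 below every one. Neither gene was called, with 95% intervals in euc1∆ of -0.35 to 1.14 for HSP42 and -0.56 to 1.29 for HSP30. Without euc1∆ replicate 1 the HSP30 difference was -0.02 and that of HSP42 was 0.10, and without euc1∆ replicate 3 they were 0.76 and 0.74.

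The 6 other stress-induced genes ranged from -0.04 to 0.22 in euc1∆ and from -0.34 to 0.00 in euc1-K231R, with none called. PAI3 (YMR174C), which encodes an inhibitor of the vacuolar proteinase A, had 6.02, 5.90 and 6.14 in euc1-K231R against 6.32, 6.51 and 6.25 in WT. All mutant arrays were below WT, and the difference was -0.34 (adjusted p = 0.123 by limma), or -0.15 after quantile normalisation (adjusted p = 0.230). In euc1∆ PAI3 had 6.76, 6.66 and 6.35 against 6.96, 6.41 and 6.44 in WT. PAI3 and SIP18 are neighbours on chromosome XIII, as are ALD2 and ALD3. The cell wall protein gene SPI1 (0.22 in euc1∆, 0.00 in euc1-K231R), the secreted glycoprotein gene YGP1 (-0.04, -0.11), MSC1 (0.11, -0.14), the reticulon gene RTN2 (0.02, -0.10) and DCS2 (0.01, -0.03), related to a cap-scavenging enzyme, make up the rest.

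The 7 redox and metabolic stress enzymes held no call in either comparison. CTT1 (YGR088W), the cytosolic catalase and a classical Msn2 and Msn4 target, had 8.67, 8.50 and 8.12 in euc1∆ against 8.36, 8.49 and 8.39 in WT. It had 8.20, 8.28 and 8.12 in euc1-K231R against 8.25, 8.35 and 8.17 in WT. The arrays overlapped in both, and the differences were 0.02 (95% interval -0.30 to 0.33) and -0.05 (-0.20 to 0.09). GND2 (YGR256W), the minor 6-phosphogluconate dehydrogenase of the pentose phosphate pathway, had 8.12, 8.05 and 8.22 in euc1∆ against 7.74, 7.76 and 8.00 in WT, with every mutant array higher. In euc1-K231R it had 7.99, 8.05 and 8.00 against 8.30, 8.16 and 8.28 in WT, with every mutant array lower. Neither difference was called (0.30, adjusted p = 0.248 by limma, and -0.23, adjusted p = 0.103). SOL4, the enzyme one step earlier in that pathway, differed by 0.11 in euc1∆ and -0.23 in euc1-K231R. The aldehyde dehydrogenase genes ALD2 and ALD3, the glutamate decarboxylase gene GAD1 and the nicotinamidase gene PNC1 differed by 0.00 to 0.11 in euc1∆. In euc1-K231R PNC1 was at 0.19 (adjusted p = 0.208) and the other three between -0.10 and -0.07.

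Of the 21 storage carbohydrate genes 13 were above 0 in euc1-K231R and 8 below, with a median of 0.10. Of the 22 stress genes 3 were above 0 and 19 below, with a median of -0.11, and of all genes 2880 were above 0 and 2701 below. The difference between the 2 sets was not tested. In euc1∆ the medians were 0.03 and 0.10. Of the 4 genes that supply hexose phosphate and UDP-glucose, UGP1 (YKL035W), which makes UDP-glucose, was at 0.14 in euc1∆ and 0.18 in euc1-K231R (adjusted p = 0.388 and 0.151 by limma). The glucokinase gene GLK1 (0.09, 0.15), the hexokinase gene HXK1 (-0.24, 0.11) and the phosphoglucomutase gene PGM2 (-0.05, -0.04) were not called either.

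The 4 genes of the trehalose synthase complex were above 0 in both mutants, with medians of 0.10 in euc1∆ and 0.11 in euc1-K231R, and none was called. TPS1 (YBR126C), which makes trehalose 6-phosphate, had 12.18, 12.01 and 11.77 in euc1∆ against 11.74, 11.90 and 11.91 in WT, overlapping. In euc1-K231R TPS1 had 11.76, 11.71 and 11.64 against 11.52, 11.62 and 11.63 in WT, so the lowest mutant array was just above the highest WT array (0.11, 95% interval -0.01 to 0.23, adjusted p = 0.289 by limma). The phosphatase gene TPS2 (0.07, 0.10) and the regulatory subunit genes TSL1 (0.12, 0.19) and TPS3 (0.03, 0.08) were not called in euc1∆ or euc1-K231R. Of the trehalases, which split trehalose into glucose, NTH2 was at 0.10 and 0.19, its paralog NTH1 at 0.02 and -0.11, and the acid trehalase ATH1 at -0.02 and -0.03.

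Of the 5 glycogen synthesis genes 4 were above 0 in euc1-K231R (median 0.14) and none was called. GSY2 (YLR258W), the main glycogen synthase, had 10.72, 10.77 and 10.57 in euc1-K231R against 10.44, 10.63 and 10.55 in WT (0.15, 95% interval -0.01 to 0.31). In euc1∆ GSY2 had 10.41, 10.23 and 10.12 against 10.12, 10.34 and 10.37 in WT (-0.03, 95% interval -0.25 to 0.19). Mutant and WT arrays overlapped in each. Its paralog GSY1 was at 0.29 in euc1∆ and 0.20 in euc1-K231R, with mutant arrays above WT in both and adjusted p of 0.425 and 0.170 by limma. The glycogenin genes GLG1 (0.06, -0.04) and GLG2 (0.15, 0.14), which start a glycogen chain, and the branching enzyme gene GLC3 (-0.09, 0.08) complete the pathway. The 2 genes of breakdown were below 0 in both mutants, the phosphorylase gene GPH1 at -0.18 and -0.17 and the debranching enzyme gene GDB1 at -0.17 and -0.03, none of them called.

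GAC1, PIG1 and PIG2 encode subunits that direct the protein phosphatase Glc7 to glycogen synthase, which it activates. GAC1 had 5.63, 5.41 and 5.55 in euc1-K231R against 6.08, 6.14 and 5.89 in WT. The groups did not overlap, and the difference was -0.51 ± 0.08 (SE, adjusted p = 0.048 by limma), at levels close to the S. pombe percentile of 5.25. In euc1∆ it had 5.62, 5.62 and 5.63 against 5.31, 5.36 and 6.02 in WT, with 1 WT array above and the others below the mutant (0.06, 95% interval -0.37 to 0.49). PIG2 (YIL045W) had 8.78, 8.63 and 8.66 in euc1-K231R against 9.05, 9.14 and 8.86 in WT, apart from each other but not called (-0.32, adjusted p = 0.117). In euc1∆ it had 9.52, 9.29 and 9.01 against 9.30, 9.55 and 9.54 in WT (-0.19). PIG1, the paralog of GAC1, differed by -0.05 in euc1∆ and 0.11 in euc1-K231R. The GAC1 difference was -0.31 with an adjusted p of 0.079 after quantile normalisation, and the call was lost without WT replicate 1 (adjusted p = 0.214), WT replicate 2 (0.112), mutant replicate 2 (0.194) or mutant replicate 3 (0.058).

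Counting genes whose mutant arrays all lay to one side of the WT arrays gave 4 of 43 in euc1∆, with HSP26, GND2 and GSY1 higher and GDB1 lower, against 18.1% of all genes in either direction. In euc1-K231R 13 genes were lower on every mutant array and 6 higher, against 11.8% and 14% of all genes. The 6 higher ones were PNC1, UGP1, TPS1, TSL1, NTH2 and GSY1. The 13 lower ones were HSP12, HSP26, DDR2, SIP18, GRE1, PAI3, MSC1, GND2, PGM2, NTH1, GPH1, GAC1 and PIG2.

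The effects of the mutants were then compared directly, as the euc1∆ difference minus the euc1-K231R difference over all 12 arrays. Of the 43 genes 4 were called, all with a positive value, against 1.25% of all genes in either direction. They were HSP12 at 0.98 ± 0.19 (SE), SIP18 at 0.90 ± 0.17, HSP26 at 0.75 ± 0.14 and GND2 at 0.53 ± 0.10, each with an adjusted p of 0.033 by limma. HSP12 and SIP18 were among the genes that fell in euc1-K231R. HSP26 and GND2 had values of opposite sign in the mutants, neither of them called alone. DDR2 (0.81, adjusted p = 0.142), GRE1 (0.57, adjusted p = 0.129) and GAC1 (0.57, adjusted p = 0.221) were not called. MSN4, also of opposite sign in the mutants, was not called either (0.30, 95% interval 0.06 to 0.54, adjusted p = 0.207 by limma). Of the stress genes 20 were above 0 and 2 below, with a median of 0.25. The storage carbohydrate genes had 8 above 0 and 13 below, with a median of -0.03. Of all genes 2769 were above 0 and 2812 below, and the difference between the 2 sets was not tested. The count of 4 was 0 without WT replicate 2 of experiment A or mutant replicate 2 of experiment B, 1 (SIP18) without WT replicate 1 of A, euc1∆ replicate 1 or euc1-K231R replicate 3, 1 (HSP26) without WT replicate 1 of B, 2 (SIP18 and GND2) without euc1∆ replicate 2 and 2 (HSP12 and HSP26) without euc1-K231R replicate 1. Without WT replicate 3 of A it was 2 as well, GND2 and, newly called, GAC1. It was 0 when all probe sets of the array were tested, and GND2 was lost after quantile normalisation (0.47, adjusted p = 0.089).

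**Figure D3:**
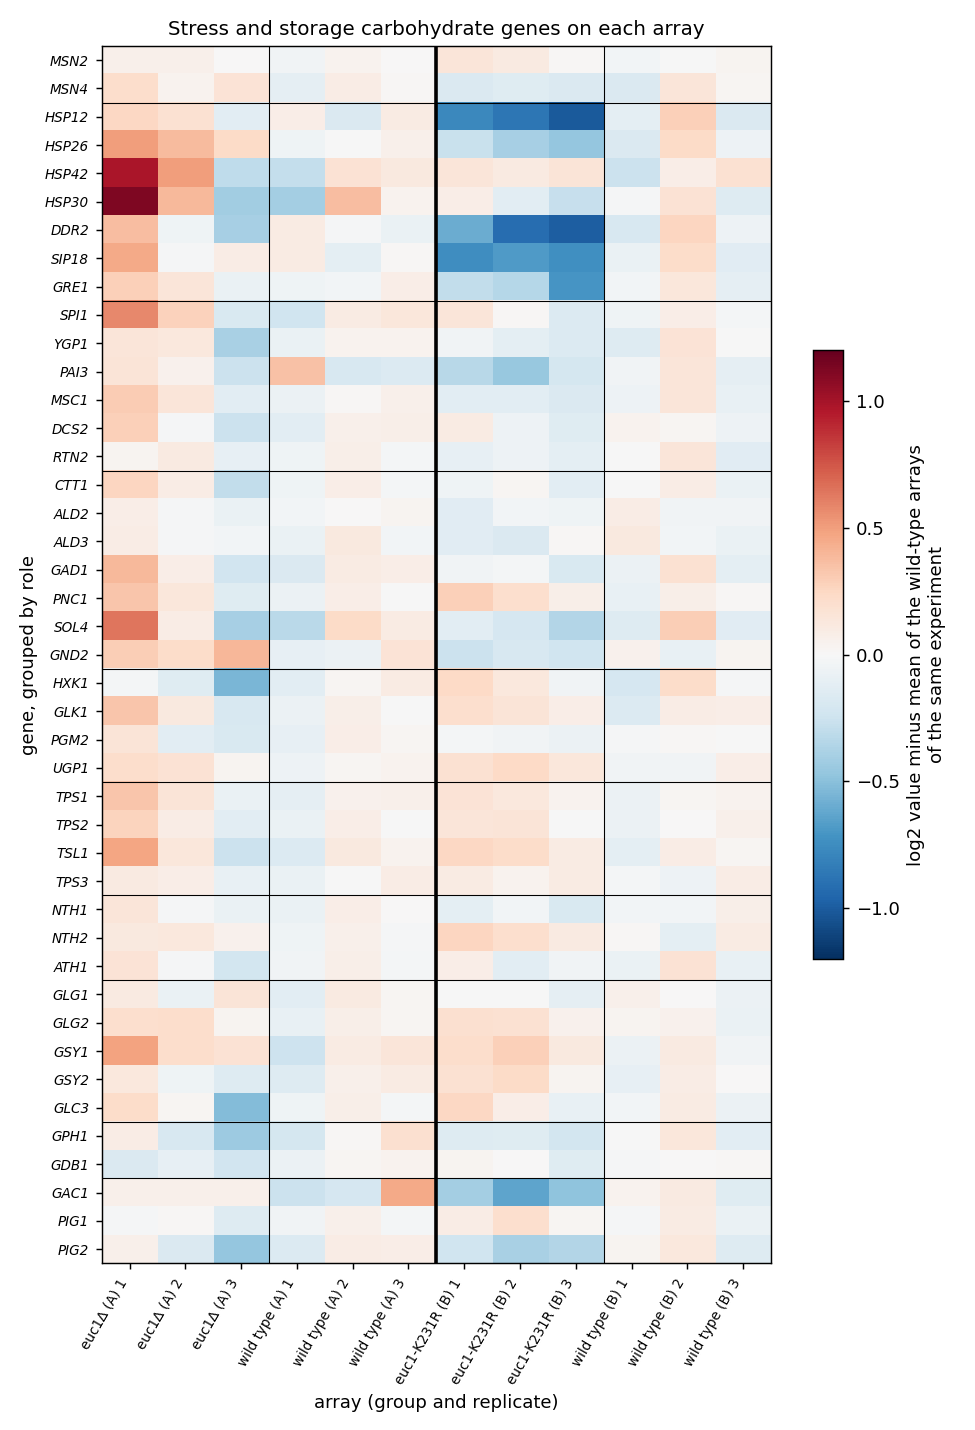
Log2 value of each of the 43 genes (rows, grouped by role) on each of the 12 arrays (columns), minus the mean of the WT arrays of the same experiment, with red for higher and blue for lower. The bluest rows in euc1-K231R are those of HSP12, DDR2, SIP18, GAC1 and GRE1. For most genes euc1∆ replicate 1 is red where replicate 3 is pale or blue.

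Within euc1∆ the replicates stood further apart on these genes than in the other groups. The median SD of the 43 genes over 3 arrays was 0.195 in euc1∆ against 0.0897 in WT of experiment A, and 0.0803 in euc1-K231R against 0.106 in WT of experiment B. Over all genes the medians were 0.0558 in euc1∆ and 0.0501 in WT, and 0.0681 in euc1-K231R and 0.0587 in WT. The SD exceeded the 90th percentile of all genes for 26 of the 43 genes in euc1∆ and 14 in WT of experiment A, and for 5 in euc1-K231R and 15 in WT of experiment B. HSP30 had the largest SD of the list, 0.77 in euc1∆.

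**Figure D4:**
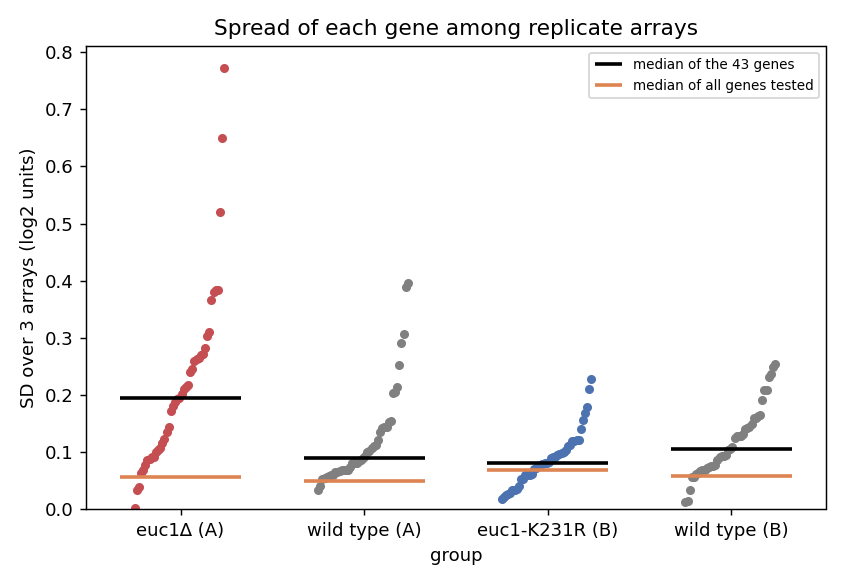
SD over 3 arrays, in log2 units, of each of the 43 genes (points, ordered within a group) in euc1∆, WT (A), euc1-K231R and WT (B), with the median of the 43 genes in black and that of all genes tested in orange. The black line is at 0.195 in euc1∆ and between 0.0803 and 0.106 in the other groups.

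The same arrays were high or low for most of the list. Replicate 1 of euc1∆ had the highest value of its group for 34 of the 43 genes (36.1% of all genes), and replicate 3 the lowest for 38 (41.3% of all genes). The mean level of the 43 genes was 9.69, 9.51 and 9.29 on the euc1∆ arrays against 9.34, 9.48 and 9.48 on the WT arrays, so the mutant arrays reached above and below every WT array. WT replicate 1 was lowest of its group for 39 genes (46.7% of all genes). Levels of 25 ribosome biogenesis genes, a growth program that usually moves against the stress program, had means of 12.49, 12.54 and 12.70 in euc1∆ against 12.67, 12.69 and 12.65 in WT, with replicate 3 highest. Of these 25 genes 24 were below 0 in euc1∆ (2765 of all 5581 genes), with a median of -0.08. At an unadjusted p under 0.05 there were 5 lower (335 of all genes). None of the 25 was called in either comparison, and their part in the spread of the stress genes was not tested. Without euc1∆ replicate 3 the median difference of the 43 genes was 0.14 with 38 above 0, and without euc1∆ replicate 1 it was -0.02 with 18 above 0. No gene of the list was called in either case.

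In experiment B the array means were 9.47, 9.42 and 9.34 in euc1-K231R against 9.45, 9.60 and 9.47 in WT. WT replicate 2 was highest of its group for 29 of the 43 genes, where it was highest for 53.7% of all genes, and euc1-K231R replicate 3 was lowest for 33, where it was lowest for 52.4%. The ribosome biogenesis means were 12.89, 12.92 and 12.92 in euc1-K231R against 12.96, 12.91 and 12.91 in WT.

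**Figure D5:**
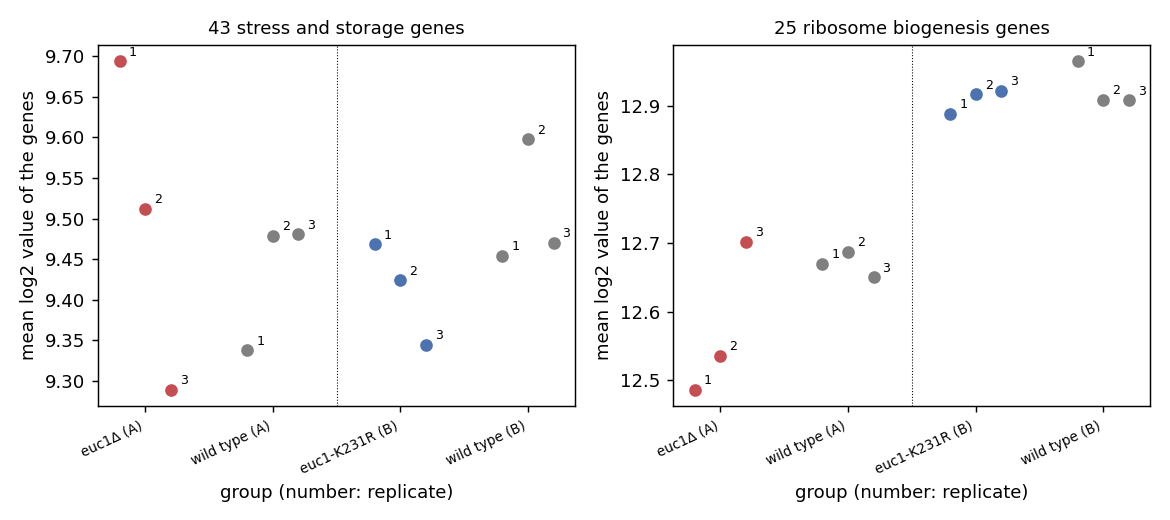
Mean log2 value on each array of the 43 stress and storage carbohydrate genes (left) and of 25 ribosome biogenesis genes (right), by group, with the replicate number beside each point and a dotted line between the experiments. The euc1∆ arrays spread over 9.29 to 9.69 on the left, with replicate 3 lowest, and over 12.49 to 12.70 on the right, with replicate 3 highest.

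Genes around the list were read from the same fits. Of 30 further stress-responsive targets none was called in euc1∆ (median 0.06). In euc1-K231R (median -0.06) 1 of the 30 fell, against 0.717% of all genes. It was the phosphatase gene PHM8 (-0.40, adjusted p = 0.048 by limma). Of 30 genes that signal to Msn2 and Msn4, such as those of the protein kinase A pathway, none was called in either mutant, with medians of 0.01 in euc1∆ and 0.04 in euc1-K231R. Of 16 genes that glucose represses, 2 fell in euc1-K231R, against 0.717% of all genes, MDH2 (-1.15), the cytosolic malate dehydrogenase, and ADR1 (-0.72), a transcription factor for growth without glucose. The other 14 were not called. Of the 16 genes 14 were below 0 (2701 of all 5581 genes), with a median of -0.32. In euc1∆ that median was -0.05 and none was called. The part of these values in the HSP12, DDR2 and SIP18 falls was not tested. Of 14 sporulation genes 1, HOP1, fell in euc1-K231R (-0.55), against 0.717% of all genes. Of 10 mating pheromone genes none was called in either mutant.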

How the data were processed

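The authors deposited log2 expression values for 10928 probe sets of the Affymetrix Yeast Genome 2.0 array, made from 300 ng of total RNA per sample by RMA, which corrects background, normalises by quantiles and summarises probes. RMA and limma are named in the submitters' processing notes, without a version, and the annotation build is not given in the sources used. Arrays of one experiment shared 42 to 216 identical values and arrays of different experiments 0, so the experiments had been normalised apart. Gene names came from the ORF column (another unit, text only) of the deposited comparison tables, whose columns of the authors' fold changes and adjusted p-values were not used. All 43 genes and 5564 of the 5581 tested matched RefSeq locus tags.

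The 132 S. cerevisiae probe sets that match several transcripts were left out. Each mutant was compared with the WT of its experiment over 6 arrays with limma 3.58.1 in R 4.3.3 (lmFit, eBayes, two-sided), with Benjamini-Hochberg adjustment over 5581 genes. The difference of effects used all 12 arrays. The model was tested on simulated data. Figures were drawn with matplotlib 3.10.9. Intervals are 95% intervals from limma.

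The genes and lists were chosen with earlier results of these data known. Values per array are given for genes called, genes with a difference of at least 0.3 in size, and MSN2, MSN4, CTT1, TPS1 and GSY2. Alternatives were quantile normalisation, median centring, a filter at the S. pombe 95th percentile, other sets of probe sets, a trended robust prior, a 12-array fit, array weights, the replicate number as a block and leaving out each array. The quantile normalisation was a second one, applied to the RMA values of the 5581 genes within each experiment. Promoter sequences were not analysed here. The number of arrays limits the precision.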

Additional observations from a re-analysis of the deposited data

Results flagged for a closer look

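The effects of the mutants differed by the test of the difference itself for 4 of the 43 genes, as euc1∆ effect minus euc1-K231R effect (limma over all 12 arrays, adjusted over 5581 genes). Of all genes 1.25% were called in either direction. The count of 4 was 0 to 3 when 1 array was left out. HSP12 differed by 0.984, with mutant minus WT values of 0.10 in euc1∆ and -0.88 in euc1-K231R. SIP18 differed by 0.896, with 0.17 in euc1∆ and -0.72 in euc1-K231R. HSP26 differed by 0.746 and GND2 by 0.531, and for these each mutant array was above all WT arrays in experiment A and below all WT arrays in experiment B. HSP26 stood at 0.37 in euc1∆ and -0.38 in euc1-K231R, and GND2 at 0.30 and -0.23. Leaving out 1 array moved the small euc1∆ values of HSP12 over 0.01 to 0.22 and of SIP18 over 0.04 to 0.27. The mutants were grown and normalised in different experiments, each with WT arrays of its own, so what distinguishes the experiments and what distinguishes the alleles cannot be told apart.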

How the results depend on the processing

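The count of 0 in euc1∆ was the same in 14 of 15 alternatives, and with array weights it was 1 (HSP26, adjusted p = 0.038). In euc1-K231R the count of 4 was 0 with all probe sets of the array, 2 with the replicate block (HSP12 and SIP18) and 23 with array weights (12 higher, 11 lower), a fit whose weights did not converge and which called 33.9% of all genes. Leaving out 1 array gave 0 to 4. For the difference between the mutants' effects the count of 4 was 0 with all probe sets of the array, 2 with the replicate block (SIP18 and GND2) and 10 with array weights (7 higher, 3 lower), where the weights did not converge either and 20.7% of all genes were called, and 0 to 3 when 1 array was left out. The labels do not say whether replicate numbers pair the samples. Deviations of same-numbered arrays correlated at -0.21 to 0.11 in experiment A and -0.22 to 0.30 in experiment B. These few correlations cannot decide it, and the main fits took the arrays as unpaired. Without euc1∆ replicate 1 the euc1∆ values of HSP30 (-0.0165, and up to 0.755 without another array), of the mean level of the 43 genes (-0.032) and of their median difference (-0.0206) turned below 0. The mean level of the 43 genes differed by 0.0658 in euc1∆ and -0.0949 in euc1-K231R. The pooled SDs of the array means were 0.155 and 0.0712. When 1 array was left out the differences were -0.032 to 0.17 and -0.123 to -0.0498. Each lay within that SD of the value with all arrays. The HSP12 difference in euc1-K231R lay between -0.97 and -0.74 and that of SIP18 between -0.79 and -0.52 over 15 alternatives. GAC1 had an adjusted p of 0.059 when eBayes used a trend and robust fitting, and of 0.087 when all 12 arrays were fitted, and DDR2 had 0.052 when all S. cerevisiae probe sets were tested. Array number and, for GAC1, a level near the S. pombe signal limit these values, and the causes of the lost calls were not tested beyond the smaller sets of arrays and the larger number of probe sets tested.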
